A study of Mus musculus with 8 samples.

Results

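A set of 9 C-type lectin receptor (CLR) genes of myeloid cells, Clec4e, Clec4d, Clec4n, Clec9a, Clec12a, Clec1b, Olr1, Clec10a and Mrc1, were examined in ChIP-seq peak lists from a murine dendritic cell (DC) line. They were taken by name and make up 9 of the 22350 protein-coding genes of the annotation used. D1 is a long-term splenic DC line of C57BL/6 origin that is grown with medium containing GM-CSF. In the NFATc2 experiment, D1 cells that stably carried a lentiviral NFATc2 with a C-terminal V5 tag, sorted for low GFP, were given 10 μg/ml curdlan for 30 min and precipitated with an anti-V5 antibody. The mark H3K4me3 was mapped in D1 cells that were not treated (NT), given 10 μg/ml curdlan for 2 h, or given curdlan with FK506 for 2 h. Curdlan is a β-glucan ligand of dectin-1 and FK506 blocks calcineurin, the phosphatase that lets NFAT enter the nucleus. Each of the 4 ChIP libraries had 1 input library and no replicate, so differences between conditions were compared without a test, and every interval below covers counting error only. No NFATc2 library without curdlan, with FK506 or from cells lacking the tag was analysed here, so a site is a place of NFATc2-V5 enrichment after curdlan and not a change in binding.

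CLRs are surface receptors that bind sugars, lipids or proteins of microbes and of damaged cells. Dectin-2 (Clec4n), Mincle (Clec4e) and MCL (Clec4d) recognise mannans and glycolipids and signal through the Fc receptor γ chain, which recruits the kinase Syk. CLEC-2 (Clec1b) and DNGR-1 (Clec9a) carry a single Syk-coupling tyrosine motif of their own, whereas MICL (Clec12a) is inhibitory. LOX-1 (Olr1), MGL1 (Clec10a) and the mannose receptor (Mrc1) are mainly uptake receptors. Most of these genes lie in tandem in 2 clusters on mouse chromosome 6, one around dectin-2 and one around dectin-1 (Clec7a). H3K4me3 marks the starts of active or poised genes, and NFAT proteins bind DNA at a GGAAA core.

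Around all 9 genes a summit of NFATc2 was found less than 100 kb from a transcription start site (TSS), which was so for 55.4% of all protein-coding genes. Of these, 5 had a summit within 10 kb (16.3% of all genes), namely Clec4e, Clec4n, Clec12a, Clec9a and Clec1b. Clec4e and Clec12a were the 2 with a summit within 1 kb (5.29% of all genes). The number of summits within 100 kb was between 2 for Mrc1 and 9 for Clec12a, with a median of 5, and the median over all genes was 1. Neighbouring genes shared sites, so the 48 pairs of gene and summit came from 26 distinct sites, 10 of which counted for more than 1 gene.

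The DNA at the 5 sites with the highest fold enrichment among the 26, and at the nearest sites of Clec4e and Clec9a, is shown first because the later results refer to it. Each run is the mm9 plus strand within 100 bp of the summit, 5′ to 3′. The core GGAAA, or TTTCC where it is on the other strand, and the AP-1 consensus TGANTCA are in capitals. The run at Clec4e covers only bases upstream of its TSS.
Clec4n, 2.14 kb upstream of the TSS, chr6:123177624-123177824: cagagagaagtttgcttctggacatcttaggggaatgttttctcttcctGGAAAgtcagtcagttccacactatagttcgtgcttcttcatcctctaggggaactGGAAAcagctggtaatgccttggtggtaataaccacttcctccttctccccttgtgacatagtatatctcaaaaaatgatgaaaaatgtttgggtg
Clec4e, at the TSS, chr6:123239890-123240046: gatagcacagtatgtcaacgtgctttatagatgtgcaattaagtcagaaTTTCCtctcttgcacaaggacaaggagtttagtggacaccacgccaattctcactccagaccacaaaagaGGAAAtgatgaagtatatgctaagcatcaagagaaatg
Clec12a, at the internal TSS, chr6:129300041-129300241: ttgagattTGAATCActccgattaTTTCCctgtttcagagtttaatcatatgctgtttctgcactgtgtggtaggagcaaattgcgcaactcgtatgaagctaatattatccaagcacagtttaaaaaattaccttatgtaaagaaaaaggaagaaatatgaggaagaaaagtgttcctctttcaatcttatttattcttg
Clec12a, intron, chr6:129313625-129313825: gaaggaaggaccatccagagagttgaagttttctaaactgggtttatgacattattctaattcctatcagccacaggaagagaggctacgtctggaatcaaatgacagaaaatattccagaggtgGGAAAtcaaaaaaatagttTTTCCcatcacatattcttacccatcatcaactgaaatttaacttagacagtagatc
Clec9a, 1.44 kb upstream of the TSS, chr6:129357344-129357544: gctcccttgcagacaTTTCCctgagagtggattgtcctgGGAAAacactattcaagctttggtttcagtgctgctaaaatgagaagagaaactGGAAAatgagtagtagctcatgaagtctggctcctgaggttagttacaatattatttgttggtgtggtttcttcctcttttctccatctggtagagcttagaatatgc
Clec1a intron near Clec9a, chr6:129384368-129384568: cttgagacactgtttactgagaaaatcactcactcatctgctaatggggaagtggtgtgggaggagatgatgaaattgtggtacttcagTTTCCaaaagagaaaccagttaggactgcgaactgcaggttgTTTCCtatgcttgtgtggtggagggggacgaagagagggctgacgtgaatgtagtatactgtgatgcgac
Clec10a, 15.3 kb upstream, chr11:69964696-69964896: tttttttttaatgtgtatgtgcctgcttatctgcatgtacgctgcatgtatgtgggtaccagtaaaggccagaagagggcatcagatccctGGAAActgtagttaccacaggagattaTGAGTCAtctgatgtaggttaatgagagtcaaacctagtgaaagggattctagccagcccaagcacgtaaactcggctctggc

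Each printed run held at least 1 GGAAA core. At Clec4e the nearest cores lay 5 bp to one side and 65 bp to the other side of the summit, at Clec4n 49 and 7 bp from it, and at Clec9a 3 cores lay 83, 59 and 5 bp from it. The longer motif GGAAAA was found within 100 bp of 8 of the 26 summits (30.8%, 95% Wilson interval from 16.5 to 49.99%) and of 45.6% of all 9438 NFATc2 summits. The interval holds the share over all summits. GGAAA alone, which also counts every GGAAAA, was found at 21 of 26 (80.8%, and 86.7% of all). TGANTCA was found at 5 of 26 (19.2%, and 21.8% of all), among them the Clec12a promoter site and the Clec10a site printed above. No site held GGAAAA and TGANTCA together (0 of 26, upper Wilson limit 12.9%), which 8.34% of all summits did. Neither motif was held by 13 of 26 (41.0% of all). The purine-rich motif GAGGAAG, a core of PU.1 sites, was found at 8 of 26 (30.8%, and 20.3% of all). Its Wilson interval, from 16.5 to 49.99%, also holds the share over all summits. The NF-kB type motif GGGNNTTCC was at 0 of 26, with an upper Wilson limit of 12.9%, and at 4.33% of all summits. All motifs were read on both strands, and a match says only that these letters lie in the window.

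In the dectin-2 cluster, the site with the most tags belonged to Clec4n. It lay 2.14 kb upstream of the TSS with 207 tags (95% Poisson interval from 180 to 237) and a fold enrichment of 23.8 over the local input background. It stood at percentile 94.3 of all NFATc2 peaks by tags and at 87.5 by fold enrichment. A pair of weaker sites lay in Clec4n introns, 7.95 and 14.5 kb downstream of the TSS, with 46 and 38 tags. A further summit was 78.5 kb upstream with 43 tags. The gene encoding dectin-2 was thus flanked by 1 strong upstream site and held 2 weak sites in its body.

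Clec4e, the Mincle gene, had 1 summit 57 bp upstream of its only annotated TSS, the shortest distance among the 9 genes. The peak held 125 tags (from 104 to 149), at percentile 82.0 by tags and 41.0 by fold enrichment, which was 12.2. Clec4d, the MCL gene between Clec4n and Clec4e, had no summit within 10 kb. Its nearest was the intronic Clec4n site of 38 tags, 17.7 kb upstream of the Clec4d TSS, and the Clec4e promoter site lay 27.8 kb downstream of it. All 4 sites counted for Clec4d were therefore also counted for its neighbours.

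In the dectin-1 cluster, Clec12a had 9 summits within 100 kb. The nearest was 121 bp upstream of an internal TSS, within an intron of the longest transcript, with 166 tags (from 142 to 193) and a fold enrichment of 21.8. Another peak in an intron, 6.91 kb downstream of an annotated TSS, held 125 tags at a fold enrichment of 24.9, percentile 89.0. Sites with 209 and 235 tags lay 57.9 and 68.8 kb upstream and were beside and in Cd69, the gene of an early activation antigen of the same lectin family. A summit with 93 tags lay 15.9 kb upstream of Clec12a in an exon of 4922502D21Rik. The weakest of the 9 by tags were the pair of peaks near Clec9a described next.

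Clec9a and Clec1b overlap Clec1a on the opposite strand, and their sites could not be assigned to one gene. A pair of adjacent peaks with 62 and 47 tags lay 1.44 and 2.63 kb upstream of the Clec9a TSS. The same peaks lay 3.88 and 2.68 kb downstream of the nearest Clec1b TSS, in an exon of a Clec1b transcript and in a Clec1a intron. Both were weak, at percentiles 49.2 and 33.4 by tags and 8.26 and 31.3 by fold enrichment. A stronger peak of 146 tags and a fold enrichment of 21.97 lay in a Clec1a intron, 14.96 kb downstream of the nearest Clec9a TSS and 30.9 kb downstream of that of Clec1b. The 3 remaining sites of each gene were those at Clec12a and 4922502D21Rik.

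Olr1 had no summit within 10 kb. The nearest, 18.97 kb upstream, held 44 tags (from 32.0 to 59.1) and lay 7.07 kb upstream of Gabarapl1, which encodes an autophagy protein. Another with 135 tags lay 38.0 kb upstream of Olr1. No NFATc2 peak lay between Olr1 and the dectin-1 gene Clec7a, and the nearest summit to Clec7a itself was 38.3 kb away.

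Outside chromosome 6, Clec10a on chromosome 11 had 7 summits within 100 kb and none within 10 kb. Its nearest site, 15.3 kb upstream, had 72 tags (from 56.3 to 90.7) and the highest fold enrichment of the 26 sites, 29.8 at percentile 94.1. The other sites lay at the related lectin genes Mgl2 and Asgr2 and at Slc16a13, between 37.5 and 85.9 kb from Clec10a. Mrc1 on chromosome 2 had the fewest, with 46 tags 24.8 kb upstream in an intron of Fam23a and 25 tags 61.2 kb upstream. The last was the weakest of the 26 sites by tags.

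**Figure D1:**
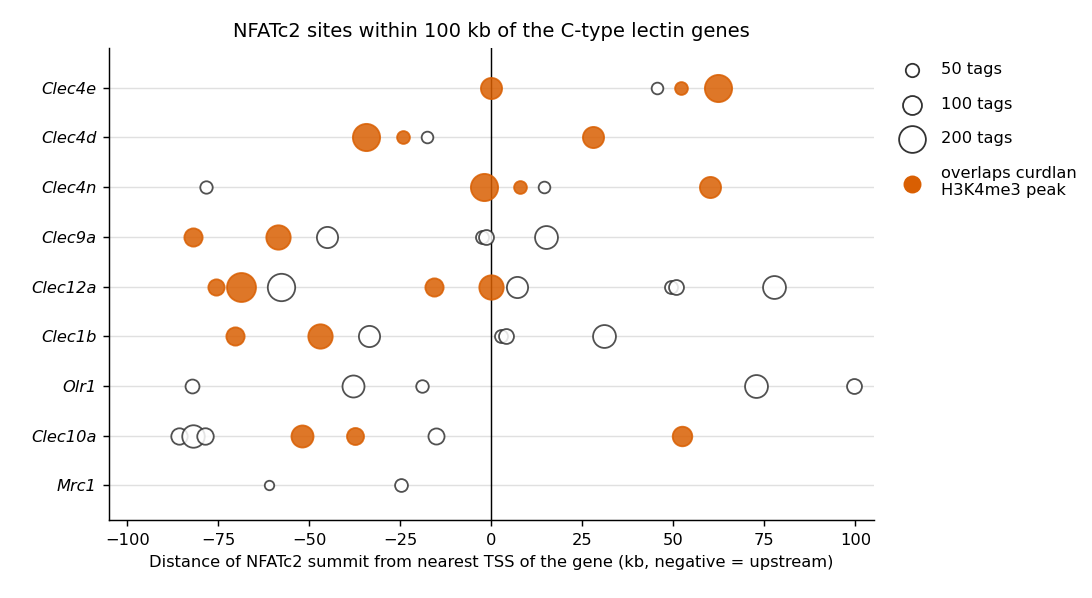
Distance in kb of each NFATc2 summit from the nearest TSS of each of the 9 genes, with circle area proportional to tags and filled circles for sites that overlap an H3K4me3 peak of the curdlan list. Clec4e and Clec12a have a filled site at the TSS, and Mrc1 has 2 small open sites only. A site within 100 kb of several genes is drawn once for each.

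Over the 26 sites the median was 78.5 tags, with a range from 25 to 235, and over all NFATc2 peaks it was 63. The median fold enrichment was 11.4, against 13.4 over all peaks. The sites were thus near the middle of the list in strength. By location 15 were intergenic, 7 were in an intron only and 4 touched an exon. Of the 26 sites, 10 overlapped an H3K4me3 peak of the curdlan list (38.5%, Wilson interval from 22.4 to 57.5%), and 24.9% of all NFATc2 peaks did. In the NT list and in the list of curdlan with FK506 the count was 8 of 26 each (30.8%), with 25.4 and 24.1% of all peaks.

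The 2 sites that overlapped only the curdlan list lay at the edges of broad domains. The Clec4n upstream site met the curdlan domain of that gene over 54 bp, and was 528 bp from the NT domain and 458 bp from the domain of curdlan with FK506. The site downstream of Cd69 met the curdlan domain over 1002 bp and was 2633 and 765 bp from the others. The curdlan library was also the deepest of the H3K4me3 libraries, with 21289349 ChIP tags against 16662316 for NT and 19468498 for curdlan with FK506. The part of depth in these edges was not tested. The curdlan input, which enters fold enrichment, was the shallowest, with 9309800 tags against 12085435 for NT and 9917958 for curdlan with FK506.

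H3K4me3 divided the 9 genes in the same way in each list. Clec4e, Clec4n, Clec12a and Mrc1 had a peak at the gene in the NT list (4 of 9, with 51.5% of all protein-coding genes). The same 4 genes had one in the curdlan list (51.2% of all) and in that of curdlan with FK506 (51.1% of all), and 50.1% of all genes had one in every list. In Clec4e, Clec4n and Clec12a it lay at a TSS, whereas the Mrc1 peak was in an intron, 15.2 kb downstream of the TSS in NT. Clec4d, Clec9a, Clec1b, Olr1 and Clec10a had no peak in any list, as had 47.7% of all genes. None of the 9 genes gained a peak with curdlan (0.658% of all genes did). A gene without a peak fell short of the caller's threshold at this depth, and that does not show absence of the mark.

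The DC label was checked with markers. Of 10 dendritic and myeloid markers, 9 had an H3K4me3 peak at a TSS in every list, all but Flt3, whose peak was elsewhere in the gene. Of 12 markers of T, B, natural killer, erythroid, epithelial, liver and fibroblast cells, 1 had such a peak, the T cell kinase gene Lck, and the B cell genes Cd79a and Pax5 had a peak away from the TSS in every list. Over all protein-coding genes, 49.0% had a peak at a TSS in NT.

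Clec4n carried one of the broadest H3K4me3 domains of each list, and one of those with the most tags. It spanned 9021 bp in NT, 9718 bp with curdlan and 9211 bp with curdlan and FK506. Its tags numbered 3507, 4814 and 3598 in that order, at percentiles 99.7, 99.8 and 99.5 among all peaks of the list. Scaled to the depth of the ChIP library, as RPM (tags per 1000000 ChIP tags), this was 210 in NT (from 204 to 218), 226 with curdlan (from 220 to 233) and 185 with curdlan and FK506 (from 179 to 191). The fold enrichment was 57.2, 45.8 and 52.6, at percentiles 85.4, 36.1 and 56.1 of the list. By RPM curdlan was thus the highest of the 3 libraries, and by fold enrichment it was the lowest.

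Clec4e had a smaller peak at its TSS, of 2280 bp in NT, 4055 bp with curdlan and 2892 bp with curdlan and FK506. The RPM values were 24.2 (from 21.9 to 26.7), 33.7 (from 31.3 to 36.2) and 23.3 (from 21.2 to 25.6). The fold enrichment was 30.0, 41.1 and 31.1. RPM and fold enrichment were both highest with curdlan. The RPM intervals of NT and of curdlan with FK506 overlapped each other and not that of curdlan. RPM sums the tags over the called peak, which was widest with curdlan. Per kb of peak the tags numbered 177, 177 and 157 before scaling to depth, so the higher RPM with curdlan was not seen per kb.

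The Clec12a peak lay at the internal TSS, overlapping the NFATc2 promoter site, and was 3284 bp wide in NT, 5318 bp with curdlan and 4593 bp with curdlan and FK506. Its level was 37.3 RPM in NT (from 34.4 to 40.3), 41.5 with curdlan (from 38.8 to 44.3) and 29.4 with curdlan and FK506 (from 27.1 to 31.9). Fold enrichment was 13.6, 43.2 and 24.5. The order of NT and curdlan with FK506 therefore differed between the measures. A separate small peak of 102 tags upstream of Clec12a was listed with curdlan only.

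The intronic Mrc1 peak was the weakest of the 4 by RPM. Its level was 13.9 RPM in NT (from 12.1 to 15.8), 8.27 with curdlan (from 7.09 to 9.58) and 8.63 with curdlan and FK506 (from 7.37 to 10.0). Its fold enrichment was 25.6, 33.5 and 27.1, again in a different order. No NFATc2 site overlapped this peak.

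**Figure D2:**
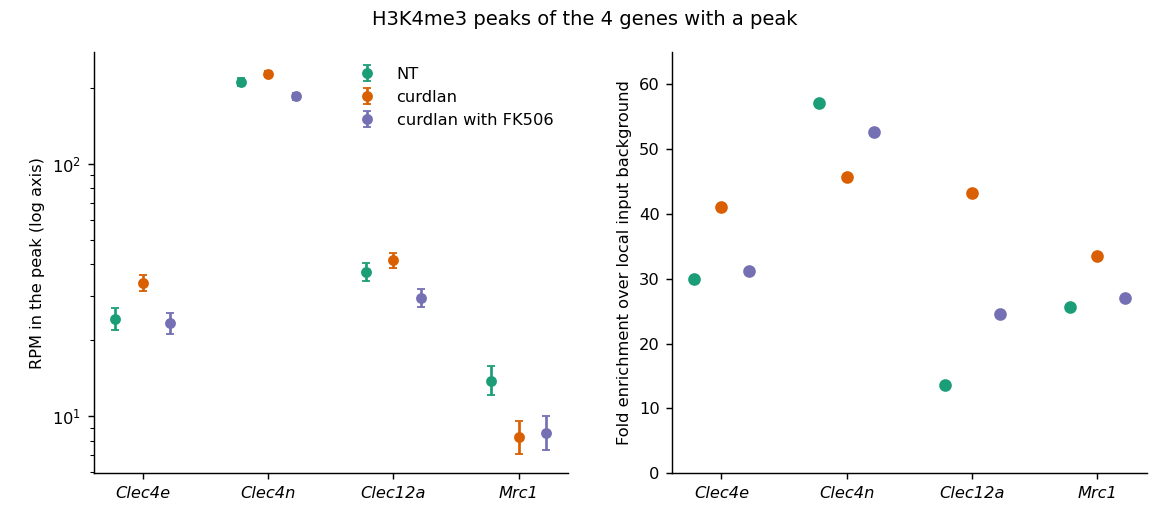
H3K4me3 peaks of Clec4e, Clec4n, Clec12a and Mrc1 in the 3 libraries, as RPM on a log axis with 95% Poisson intervals (left) and as fold enrichment over the local input background (right). Clec4n is far above the others by RPM, and curdlan is its highest library in the left panel and its lowest in the right.

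To compare conditions, the log2 ratio of fold enrichment was centred on its median over all genes with a peak in both lists, and a gene was called at a centred change of 1 or more in size. The medians subtracted were 0.73 for curdlan against NT, -0.27 for curdlan with FK506 against curdlan and 0.45 for curdlan with FK506 against NT. For curdlan against NT, Clec4n was called lower at -1.05, and no other listed gene was called, whereas 4.04% of all genes were called lower and 4.15% higher. The call for Clec4n held only for centred fold enrichment, and without centring the log2 ratio was -0.32. By RPM its centred log2 ratio was 0.23, and by RPM per kb of peak 0.18. Clec12a was just under the limit at 0.93 and stood at percentile 94.9 of all genes, but its value by RPM was 0.28 and by RPM per kb of peak -0.36.

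For curdlan against NT, Clec4e was at -0.28 by fold enrichment, 0.60 by RPM and -0.17 by RPM per kb of peak. Mrc1 was at -0.35 by fold enrichment and -0.62 by RPM, the one gene of the 4 with a negative sign by both. The median of the 4 genes was -0.31 by fold enrichment and 0.26 by RPM. Without centring, the ratio of fold enrichment between curdlan and NT was 1.37 for Clec4e, 0.80 for Clec4n, 3.18 for Clec12a and 1.31 for Mrc1.

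For curdlan with FK506 against curdlan, none of the 4 genes was called, with 3.5% of all genes called higher and 4.11% lower. The centred change of fold enrichment was -0.13 for Clec4e, 0.47 for Clec4n, -0.55 for Clec12a and -0.04 for Mrc1. By RPM Clec4e was at -0.49, Clec4n at -0.25, Clec12a at -0.45 and Mrc1 at 0.11. The sign was negative by both measures for Clec4e and Clec12a, and it differed between measures for Clec4n and Mrc1. Both Mrc1 values lay within its counting half-width of 0.30. The value of -0.13 for Clec4e was smaller in size than its counting half-width of 0.17. That half-width comes from ChIP tags only and leaves out the input that enters fold enrichment. By RPM per kb of peak, Clec4e was at -0.03 and Clec12a at -0.27. The uncentred log2 ratio of RPM was -0.53 for Clec4e (from -0.70 to -0.36) and -0.49 for Clec12a (from -0.65 to -0.34).

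For curdlan with FK506 against NT, again none was called, with 3.62% of all genes called higher and 3.52% lower. The values were -0.40 for Clec4e, -0.57 for Clec4n, 0.40 for Clec12a and -0.37 for Mrc1 by fold enrichment. By RPM they were 0.12, -0.01, -0.16 and -0.51. These comparisons share libraries, since curdlan enters the first and the second and NT the first and the third, so their values are not independent of each other.

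**Figure D3:**
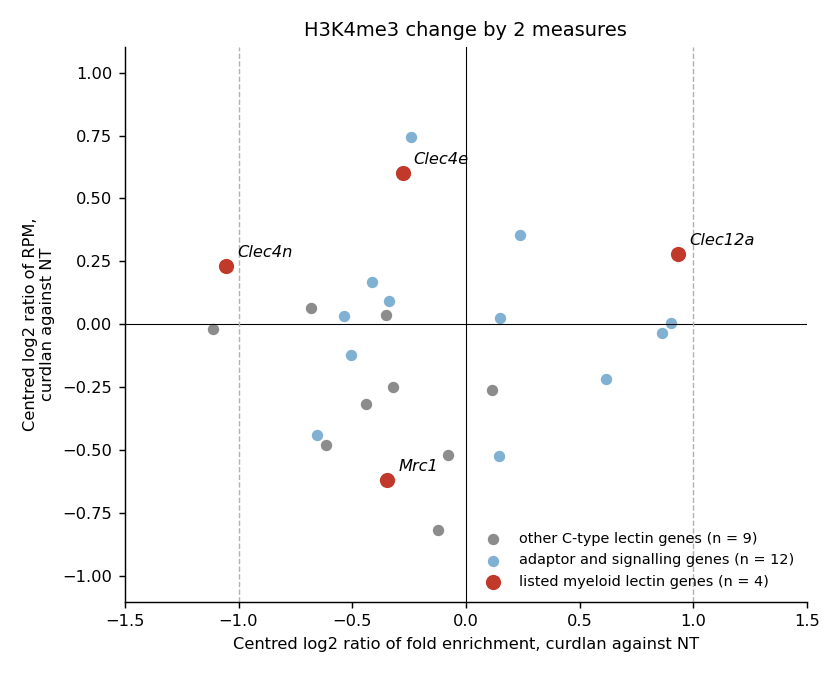
Centred log2 ratio of curdlan against NT by fold enrichment (horizontal) and by RPM (vertical) for the 4 listed genes with a peak, 9 other C-type lectin genes and 12 adaptor and signalling genes. Dashed lines mark the limit of a call. Clec4n is left of the lower limit and above 0 on the vertical axis, and Clec12a is just inside the upper limit.

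The adaptor and signalling genes through which CLRs act were described beside the receptors. All 12 had an H3K4me3 peak in every list, 10 had an NFATc2 summit within 100 kb and 6 within 10 kb. Their median centred change for curdlan against NT was -0.05. None was called, with 4.15% of all genes called higher and 4.04% lower. The highest values were those of Cblb, a ubiquitin ligase that restrains CLR signalling, at 0.90, of the kinase gene Prkcd at 0.86, of Syk at 0.62 and of Bcl10 at 0.24. Card9, which joins Syk signals to Bcl10, was at -0.65. By RPM Cblb was at 0.00, Prkcd at -0.03, Syk at -0.22 and Bcl10 at 0.35, so Syk changed sign between the measures. Prkcd did so too, but its value by RPM lay within its counting half-width of 0.09.

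Of 27 other C-type lectin genes, 9 had an H3K4me3 peak in the NT and curdlan lists (33.3%) and 8 in the FK506 list (29.6%). The shares over all protein-coding genes were 51.5, 51.2 and 51.1%. A summit lay within 100 kb of 24 of them (88.9%, and 55.4% of all genes) and within 10 kb of 8 (29.6%, and 16.3% of all). A summit within 100 kb was thus not particular to the 9 genes. Their median centred change for curdlan against NT was -0.35. Clec2d, which encodes a ligand of natural killer receptors, was called lower at -1.11 (4.04% of all genes were), but was at -0.02 by RPM. Cd69 followed at -0.68, with 0.07 by RPM, and Mgl2, the close relative of Clec10a, at -0.61, with -0.48 by RPM.

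The nearest gene by the 3 log2 fold enrichments, among the 20 genes of both lists with a peak in every list, was Clec5a for Clec4n at a Euclidean distance of 0.51. It was Klrd1 for Clec4e at 0.57, for Clec12a at 0.80 and for Mrc1 at 0.25. The distance rests on 3 conditions only.

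The dectin-2 neighbourhood on mm9, chr6:122771866-123339889, reaches 100 kb beyond a run of 9 lectin genes from Clec4a1 to Clec4e. It held 13 NFATc2 peaks in 0.568 Mb, which was 22.9 per Mb, against 4.01 per Mb on chromosome 6 and 3.58 over the genome. The NT and curdlan lists had 7 H3K4me3 peaks each there, or 12.3 per Mb, and the list of curdlan with FK506 had 6, or 10.6. On chromosome 6 the 3 lists had 5.26, 5.03 and 5.00 per Mb, so H3K4me3 peaks were also denser in this region. The NFATc2 peaks were thus denser than the H3K4me3 peaks in this region, whereas over the genome the NT list had 5.99 and the curdlan list 5.64 H3K4me3 peaks per Mb.

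At the lower-coordinate end, C3ar1, the receptor gene for complement C3a, had 44 NFATc2 tags in a peak with its summit 9 bp before the TSS. Its H3K4me3 peak had 37.7 RPM in NT, 45.9 with curdlan and 46.0 when FK506 was added. A peak of 181 NFATc2 tags lay 1.81 kb upstream of Necap1, an endocytosis gene. Clec4a1, of the DCIR group of lectins, had a summit 193 bp upstream with 123 tags and an H3K4me3 peak of 13.2, 8.45 and 7.96 RPM in the same order. Its relative Clec4a4 held an intronic NFATc2 peak of 49 tags. The H3K4me3 peak at the Clec4a4 TSS had 5.34 RPM in NT and 4.09 with curdlan, and was not listed with curdlan and FK506.

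Clec4b1 differed from these neighbours. A summit with 72 tags lay 14 bp upstream of its TSS, yet no H3K4me3 list had a peak at the gene. Clec4b1 was singled out after its values were seen. No H3K4me3 peak was listed at Clec4a3, Clec4a2, Clec4b2 or Clec4d either, so among the lectin genes of the run the mark was found at Clec4a1, Clec4a4, Clec4n and Clec4e.

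**Figure D4:**
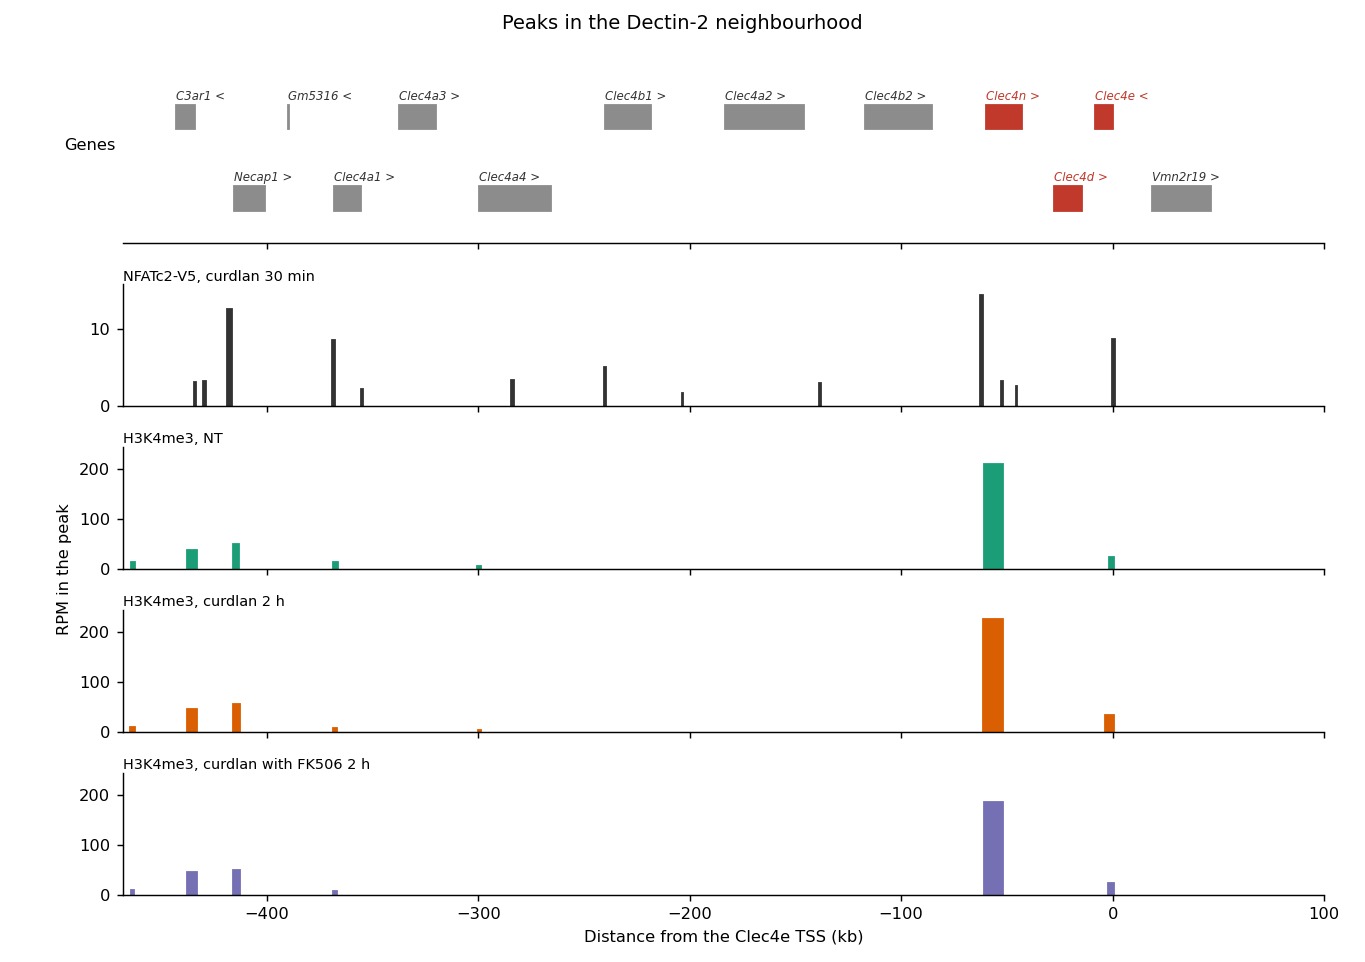
Peaks of the 4 lists in the dectin-2 neighbourhood, drawn to scale as RPM in each peak against distance in kb from the Clec4e TSS, with listed genes in red and arrows for strand. The H3K4me3 rows share an axis range, and the Clec4n domain, at 210, 226 and 185 RPM, is the tallest in each.

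The dectin-1 neighbourhood, chr6:128737606-129673882, reaches 100 kb beyond 12 lectin genes of the lists used here, from Clec2i to Klrk1, with further Clec2 and Klr genes among them. It held 24 NFATc2 peaks in 0.936 Mb, or 25.6 per Mb. The NT and curdlan lists had 19 H3K4me3 peaks each there, or 20.3 per Mb, and the FK506 list had 17, or 18.2. Peaks of both kinds were again denser than on chromosome 6. The NFATc2 peak with the most tags, 508, was 6.995 kb upstream of Klrb1b, a gene of the Nkr-p1 receptors of natural killer cells. Its fold enrichment was 19.9. A group of 4 peaks with 88 to 268 tags lay in the body of 2310001H17Rik, downstream of Cd69. The highest fold enrichment of the neighbourhood, 25.5, was that of a peak of 152 tags in this group.

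The listed genes of this region stood between strongly marked neighbours. Cd69 had an H3K4me3 level of 162 RPM in NT, 155 with curdlan and 154 when FK506 was added. In the same order Clec7a, the dectin-1 gene, had 77.7, 59.98 and 55.1 RPM and Gabarapl1 had 79.5, 80.5 and 88.2 RPM. Between Clec12a and Clec7a, the stretch with Clec12b, Clec1a, Clec1b and Clec9a had no H3K4me3 peak in any list, although 3 NFATc2 peaks lay in it. Clec9a was 45.6 kb from the nearest H3K4me3 peak in NT and Clec1b 43.8 kb.

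Olr1 was 7.85 kb from a small peak between it and Clec7a. This peak had 5.40 RPM in NT and 5.59 with curdlan, and was not listed with curdlan and FK506. A small peak of 61 tags near Klre1 was listed in NT only. The other peaks listed in this neighbourhood in NT were listed in all 3 conditions.

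Beyond Olr1, the natural killer receptor genes Klrd1 and Klrk1 had H3K4me3 levels of 49.7, 25.8 and 26.04 RPM and of 66.1, 48.6 and 49.4 RPM in the same order. On the other side, Klrb1f had 68.7, 38.1 and 33.9 RPM, Clec2g 39.1, 22.5 and 19.6 RPM, Klrb1b 37.8, 28.6 and 25.6 RPM, and Clec2d 81.2, 73.5 and 69.3 RPM. Klri1 held an intronic NFATc2 peak of 182 tags and no H3K4me3 peak. Genes of the Clec4a, Clec2 and Klr groups have close relatives nearby, and how tags from near-identical stretches were shared among them was not examined.

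**Figure D5:**
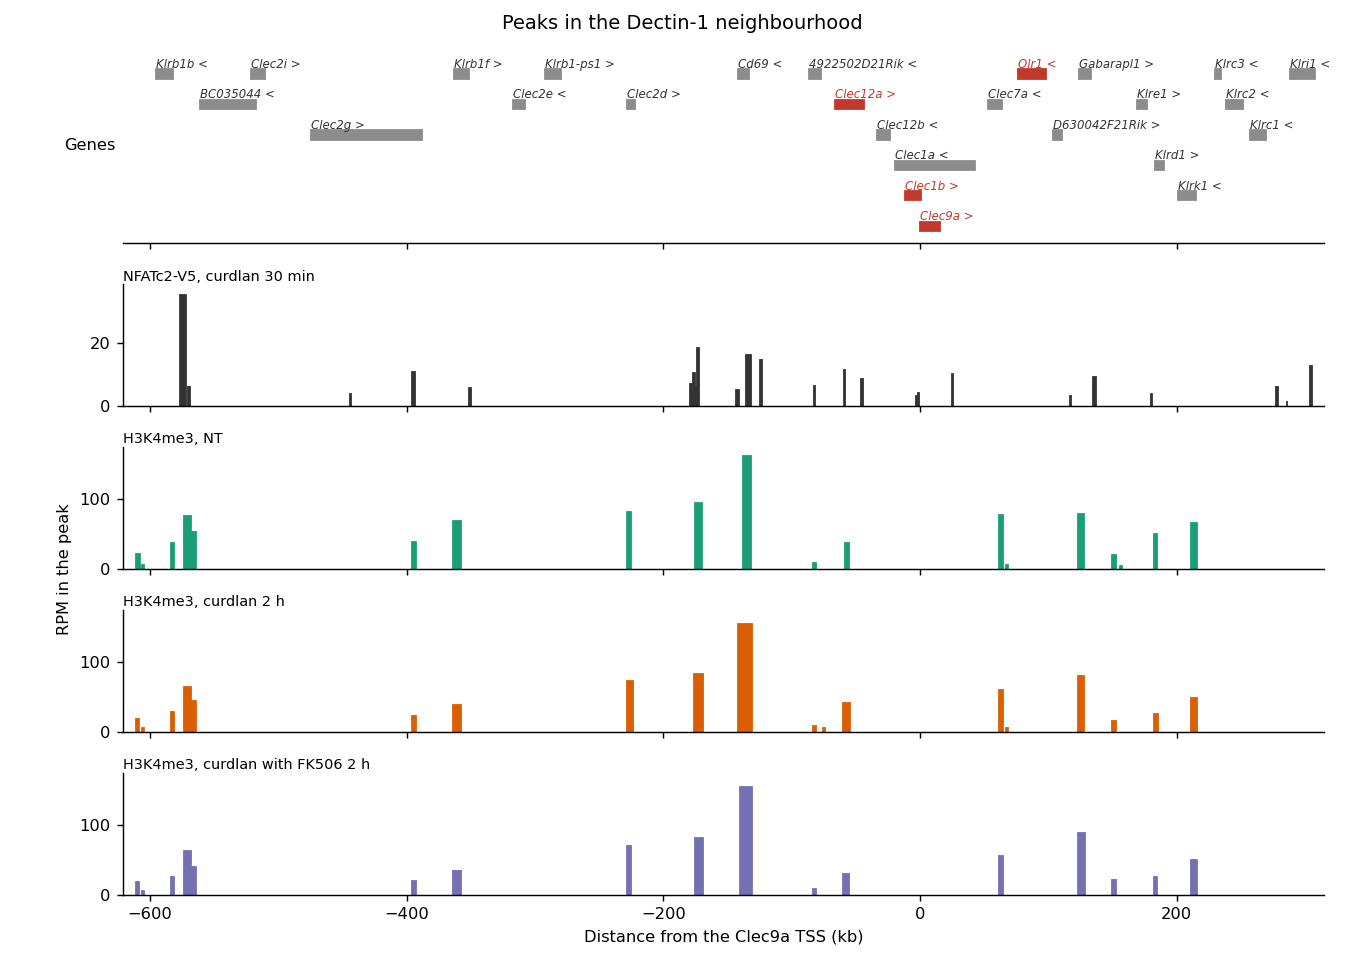
Peaks of the 4 lists in the dectin-1 neighbourhood, drawn to scale as RPM in each peak against distance in kb from the Clec9a TSS, with listed genes in red and arrows for strand. NFATc2 peaks are present between Clec12a and Clec7a, where the H3K4me3 rows are empty around Clec1b and Clec9a.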

How the data were processed

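The data were 4 peak lists from D1 cells, 1 for NFATc2-V5 and 3 for H3K4me3, each from 1 ChIP and 1 input library. Reads had been aligned by the authors with bowtie 1 to the mm9 genome, and MACS (1.4.2 in the file headers) had called peaks over input at p of 1e-05. The deposited lists give tag counts per peak, a p-value score (−log10 p times 10, limited to 3100), fold enrichment over local background and FDR in percent, per the file headers. ChIP totals were 14377535 tags for NFATc2 and 16662316, 21289349 and 19468498 for NT, curdlan and curdlan with FK506.

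Genes came from GENCODE vM1 (Ensembl release 65) on the same build, with 22350 protein-coding genes on chromosomes 1 to 19 and X. A site was the peak summit. A gene's H3K4me3 peak was the one with the most tags among peaks overlapping the gene or within 1 kb of a TSS. Neighbourhoods joined lectin genes less than 500 kb apart and added 100 kb on each side. Of 70 listed genes, 68 matched by symbol and 2 through RefSeq names. Wilson and Poisson intervals (95%) cover counting error only. With 1 library per condition no test was made. Ratios were tested with planted changes. Peak assignment, distances and window counts were checked against a direct count on the peak lists. The motif search was not among these checks. Computations ran in Python 3.11.15 (numpy 2.4.6, scipy 1.17.1, pandas 2.3.3, matplotlib 3.10.9) with samtools 1.23.1 and pysam 0.24.0.

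The members and gene lists were chosen with earlier results of these data known. Genes named were the 9 genes, every gene whose whole body lay in a neighbourhood and that had a summit or H3K4me3 peak in it, the 4 highest and 4 lowest changes of the other lists, and the nearest gene by fold enrichments. Alternatives covered peak thresholds, distances, overlap, TSS choice, motif window, peak assignment, the measure of change and centring.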

Additional observations from a re-analysis of the deposited data

How the results depend on the processing

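No paired analysis was possible because each condition had 1 ChIP library and no result came from a test. For the same reason no library could be left out. With NFATc2 peaks of p 1e-10 or less, 8 of the 9 genes had a summit within 100 kb, the distinct summits fell to 13, those overlapping H3K4me3 to 6, those with GGAAAA to 3, and the peaks in the chromosome 6 neighbourhoods from 37 to 17. Within 50 kb, all 9 genes had a summit, with 15 summits, 6 overlapping H3K4me3 and 5 with GGAAAA. A limit of 5% on FDR left these counts as they were. The median H3K4me3 change by RPM was 0.26 for curdlan against NT, -0.35 for curdlan with FK506 against curdlan and -0.0881 for curdlan with FK506 against NT. Without centring it was 0.42, -0.35 and 0.0666. The call of Clec4n for curdlan against NT turned to 0.23 by RPM and 0.18 by RPM per kb of peak. The cause of these shifts was not tested. Of 41 alternatives for counts and medians, 28 left the value within its limit and 13 moved it.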
